A study of Mus musculus with 6 samples.

Results

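Thymus RNA was measured on 6 Affymetrix MoGene-1 arrays from 10-day-old mice, 3 of the RUNX2/MYC genotype and 3 wild type (WT), each labelled as a separate biological replicate. RUNX2/MYC mice carried CD2-Runx2 and CD2-Myc, transgenes whose expression is driven in T cells by CD2 control elements, on a C57BL6/CBA background, and WT mice were C57/CBA. The methods describe the controls as matched littermates. The RNA came from whole thymus, so the macrophages and dendritic cells described here lay among thymocytes, epithelium and other stroma and were not sorted. Transgene expression in them was not measured. The comparison sets premalignant thymus against normal thymus of the same age.

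The 38 genes described here are markers of macrophages (18 genes), of dendritic cells (13 genes) and of both kinds of cell (7 genes), among 19938 genes with a probe set of their own. Each value is a log2 signal, on which a difference of 1 is a doubling of brightness, and a gene is represented by its brightest probe set among those that the array annotation pairs with that symbol alone. Fold changes are differences of group means on this log2 scale, RUNX2/MYC minus WT, each with its standard error (SE) from limma over 3 arrays a group. All 38 genes had exactly 1 such probe set.

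Macrophages of the thymus engulf the thymocytes that die during selection. They recognise dying cells through phosphatidylserine on the cell surface, bound directly or through bridging proteins, and through complement C1q. Dendritic cells sit mainly in the medulla and at its border with the cortex, where they present antigen to thymocytes and take part in deleting autoreactive cells. Conventional dendritic cells of type 1 (cDC1) take up dead cells and carry the chemokine receptor XCR1, type 2 cells (cDC2) carry lectins such as those encoded by Cd209a and Clec10a, and plasmacytoid dendritic cells respond to nucleic acids and carry Siglec-H. Several of the genes are transcribed elsewhere too, such as Cd83 in thymic epithelium, Vcam1 in vessels and stroma, and Irf8 in B cells.

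The median log2 signals were 7.31 to 7.44 on the RUNX2/MYC arrays and 7.41 to 7.49 on the WT arrays, so the RUNX2/MYC arrays were slightly dimmer. This offset was not small beside many of the fold changes below. Centring each array on its median moved the median fold change of all probe sets from -0.051 to 0.033. The Runx2 probe set gave 11.73, 11.78 and 11.96 on the RUNX2/MYC arrays, against 7.94, 7.94 and 7.93 on the WT arrays (log2 fold change 3.89, adjusted p = 4.3e-05 from limma). The array annotation does not give that probe set to Runx2 alone, and the name was taken from the study's own table. The Myc probe set gave 10.51, 10.88 and 10.55 on the RUNX2/MYC arrays, against 11.00, 11.26 and 11.12 on the WT arrays, below WT on every array (log2 fold change -0.48, SE 0.13, adjusted p = 0.119 from limma), and whether it reads the transgene is not given in the sources used here. Thymocyte markers were bright on every array, with Cd8b1 at 12.98 to 13.02 on the RUNX2/MYC arrays and 12.95 to 13.03 on the WT arrays. RUNX2/MYC replicate 2 stood apart in adipocyte genes: the brown fat gene Ucp1 read 9.93 there, against 6.46 and 6.48 on the other RUNX2/MYC arrays and 6.12 to 6.95 on the WT arrays. With 3 arrays a group, an exact permutation test of a single gene cannot give a p below 0.1, and the number of arrays limits the precision.

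No member passed limma (adjusted p under 0.05 over all 35556 probe sets) in either direction, where 1.68% of all probe sets were called higher and 0.127% lower in RUNX2/MYC (596 higher and 45 lower, against 457 and 124 after cyclic loess, 209 and 45 after centring on the 75th percentile and 478 and 135 after centring of signal bins). At an unadjusted p under 0.05, 7 of the 38 members were lower (18.4%) and 1 was higher (2.63%), against 9.27% of all probe sets lower and 12.0% higher. By the methods' analysis of variance with q values, which called 3.41% of all probe sets higher and 0.695% lower, Siglech was lower (q = 0.0482) and no other member was called. On 10 members the 3 RUNX2/MYC arrays all lay below the 3 WT arrays (26.3%, against 10.1% of all probe sets), and on Msr1 they all lay above (2.63%, against 14.3%). Fold changes were below 0 for 30 of the 38 members (78.9%), with a median of -0.11, against 57.7% and a median of -0.051 for all probe sets. With each array centred on its median, 21 of the 38 were below 0. RNA of a whole organ cannot tell fewer cells of a type from less RNA per cell.

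**Figure D1:**
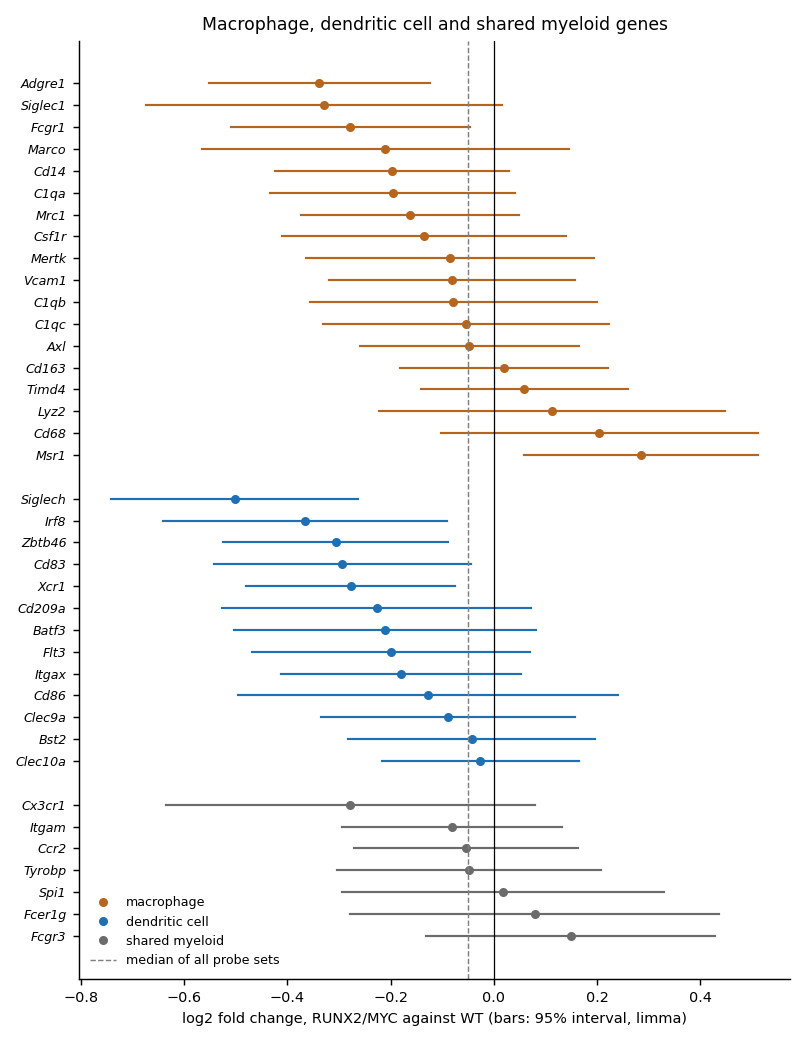
Fold change (log2) of each member in RUNX2/MYC over WT with its 95% interval from limma, by gene group (brown macrophage, blue dendritic cell, grey shared myeloid), and the median of all probe sets (-0.051) as a dashed line. All 13 dendritic cell genes lie below 0 (10 after cyclic loess and 11 after median centring), while the macrophage genes run from -0.34 (Adgre1) to 0.28 (Msr1).

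Of the member groups, the dendritic cell genes had the lowest median fold change on the deposited values. Thymic epithelial genes (median -0.28) and B cell genes (-0.25), described below, had lower medians. All 13 dendritic cell genes had a fold change below 0 (11 after median centring or quantile normalization, 10 after cyclic loess or centring of signal bins). Their median was -0.21, with a range from -0.50 for Siglech to -0.026 for Clec10a. Of these genes, 5 were lower at an unadjusted p under 0.05 (38.5%, against 9.27% of all probe sets). Without overlap between the groups, 6 were lower (46.2%, against 10.1% of all probe sets). Of Siglech, which encodes the sialic acid-binding lectin of plasmacytoid dendritic cells, the log2 signal was 7.81, 7.71 and 7.81 on the RUNX2/MYC arrays, against 8.43, 8.15 and 8.26 on the WT arrays. Every RUNX2/MYC array was below every WT array, by more than the spread within either group. Its log2 fold change of -0.50 (SE 0.10, 95% interval -0.74 to -0.26), a ratio of 0.706, was the largest of the members in size and missed the threshold (adjusted p = 0.0623 from limma). Bst2, tetherin, the other gene listed for plasmacytoid cells, had 9.10, 9.08 and 8.92 on the RUNX2/MYC arrays and 9.19, 8.96 and 9.08 on the WT arrays, with overlapping groups and a fold change of -0.043 (SE 0.10). Bst2 is interferon-inducible and is transcribed by many cells.

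The genes of cDC1 cells came next. Irf8, a transcription factor that cDC1 and plasmacytoid cells need, gave 9.27, 9.35 and 9.42 on the RUNX2/MYC arrays, against 9.53, 9.70 and 9.90 on the WT arrays. The groups did not overlap, although the WT arrays were spread more widely (SD 0.074 in RUNX2/MYC, 0.19 in WT), and the fold change of -0.37 (SE 0.12) had an adjusted p of 0.164 from limma. Xcr1, the receptor of the chemokine XCL1, gave 7.30, 7.31 and 7.20 on the RUNX2/MYC arrays, against 7.54, 7.62 and 7.48 on the WT arrays. These groups were also apart, with a fold change of -0.28 (SE 0.085, adjusted p = 0.154 from limma). Batf3, a transcription factor of cDC1 development, had 7.42, 7.15 and 7.17 on the RUNX2/MYC arrays and 7.53, 7.57 and 7.27 on the WT arrays, with the first RUNX2/MYC array inside the WT range and a fold change of -0.21 (SE 0.12). Clec9a, the cDC1 receptor for exposed actin of dead cells, was dimmer and showed less, at 6.40, 6.12 and 6.39 on the RUNX2/MYC arrays and 6.41, 6.42 and 6.35 on the WT arrays (fold change -0.089, SE 0.10).

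The promoters of Siglech and Xcr1 come from the RefSeq promoter table (build GRCm38.p6) and are shown because the groups were apart at both genes and because the transgene products, RUNX2 and MYC, bind DNA at known motifs. Each window runs from 250 bases before the gene's start to 50 after it, 5′ to 3′ as the table gives it, at chr7:55767934-55768233 (plus strand) for Siglech and chr9:123861980-123862279 (minus strand) for Xcr1. Capitals mark the RUNX core TGTGGT and the E-box CACGTG that MYC binds, searched on both strands with no overlap between matches.
Siglech: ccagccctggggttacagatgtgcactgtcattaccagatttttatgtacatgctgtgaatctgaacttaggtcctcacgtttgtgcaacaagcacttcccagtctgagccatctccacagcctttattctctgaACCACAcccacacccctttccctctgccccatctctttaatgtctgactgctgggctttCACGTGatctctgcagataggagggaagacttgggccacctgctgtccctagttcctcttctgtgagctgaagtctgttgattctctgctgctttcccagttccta
Xcr1: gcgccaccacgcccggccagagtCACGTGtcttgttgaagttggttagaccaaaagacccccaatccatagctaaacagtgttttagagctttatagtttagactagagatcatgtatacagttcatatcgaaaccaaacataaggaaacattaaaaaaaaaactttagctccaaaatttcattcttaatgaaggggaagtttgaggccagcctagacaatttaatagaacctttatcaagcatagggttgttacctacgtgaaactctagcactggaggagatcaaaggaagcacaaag
The Siglech window holds 1 RUNX core, on the reverse strand, and 1 E-box, and the Xcr1 window holds 1 E-box. Of all 32851 promoters of that length in the table, 16.8% hold the RUNX core and 7.15% the E-box. Of the 26 members with a promoter there, 6 hold the RUNX core (C1qc, Cx3cr1, Fcer1g, Itgax, Lyz2 and Siglech) and 4 the E-box (Batf3, Flt3, Siglech and Xcr1). A match describes the letters and not a bound site.

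General dendritic cell genes followed the same direction. Zbtb46, a transcription factor of conventional dendritic cells, gave 6.89, 6.74 and 6.90 on the RUNX2/MYC arrays, against 7.23, 7.16 and 7.07 on the WT arrays, with no overlap (fold change -0.31, SE 0.092, adjusted p = 0.149 from limma). Itgax, which encodes CD11c, had 7.52, 7.26 and 7.45 on the RUNX2/MYC arrays and 7.63, 7.55 and 7.59 on the WT arrays. The groups were again apart, by less than the SD within the RUNX2/MYC arrays, and the fold change was -0.18 (SE 0.098, adjusted p = 0.312 from limma). Flt3, the receptor of the growth factor that dendritic cells depend on, had 7.27, 7.19 and 7.22 on the RUNX2/MYC arrays and 7.55, 7.21 and 7.53 on the WT arrays. WT replicate 2 lay within the RUNX2/MYC values, and the fold change was -0.20 (SE 0.11). The cDC2 lectin genes differed from each other, with fold changes of -0.23 (SE 0.13) for Cd209a and -0.026 (SE 0.080) for Clec10a, whose signal was the lowest of the group (mean 5.89).

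Both costimulation genes were below 0, by unequal amounts. Cd83, a surface protein of mature dendritic cells and the brightest of the group, gave 9.90, 9.93 and 9.73 on the RUNX2/MYC arrays, against 10.17, 10.01 and 10.26 on the WT arrays. Its groups did not overlap, and the fold change was -0.29 (SE 0.11, adjusted p = 0.192 from limma). Cd86, a ligand of CD28, had 6.80, 7.23 and 6.92 on the RUNX2/MYC arrays and 6.91, 7.08 and 7.34 on the WT arrays. The spread within its groups (SD 0.22 in each) was larger than the fold change of -0.13.

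**Figure D2:**
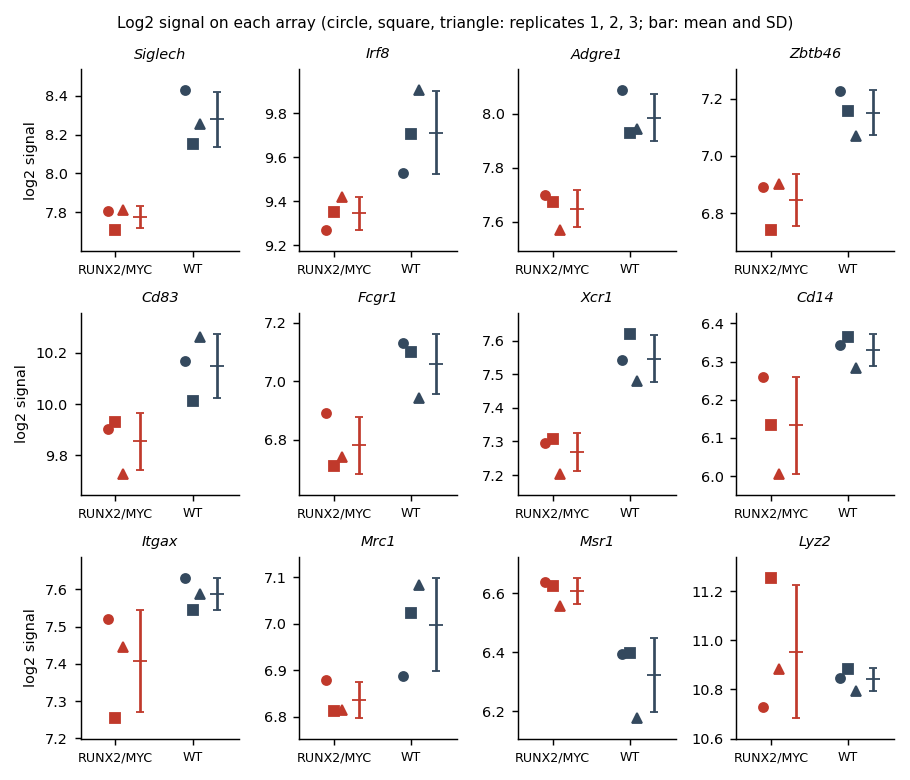
Log2 signal on each array (vertical axis) of the 11 members whose groups did not overlap, and of Lyz2, the brightest member, with RUNX2/MYC in red on the left, WT in dark grey on the right, and the mean and SD of 3 arrays as bars. Siglech is the panel with the widest gap, 7.71 to 7.81 in RUNX2/MYC against 8.15 to 8.43 in WT, and Msr1 is the panel in which RUNX2/MYC is above WT.

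The macrophage genes lay closer to 0 and went both ways, with 13 of 18 below 0 and a median of -0.083, which after median centring became 9 of 18 and 0.0015. At an unadjusted p under 0.05, 2 were lower (11.1%) and 1 was higher (5.56%), against 9.27% and 12.0% of all probe sets. Without overlap, 4 were lower (22.2%) and 1 was higher (5.56%), against 10.1% and 14.3% of all probe sets. Adgre1, which encodes the surface receptor F4/80, had 7.70, 7.67 and 7.57 on the RUNX2/MYC arrays, against 8.09, 7.93 and 7.94 on the WT arrays. The groups were apart by more than the range within either, with a fold change of -0.34 (SE 0.090, adjusted p = 0.117 from limma). Fcgr1, the high-affinity receptor for IgG, gave 6.89, 6.71 and 6.74 on the RUNX2/MYC arrays, against 7.13, 7.10 and 6.94 on the WT arrays. Its groups lay next to each other without overlap, and the fold change was -0.28 (SE 0.098, adjusted p = 0.187 from limma).

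Msr1, a class A scavenger receptor, was the one member above WT on every array. Its signal was 6.64, 6.63 and 6.56 on the RUNX2/MYC arrays, against 6.39, 6.40 and 6.18 on the WT arrays, with a fold change of 0.28 (SE 0.096, adjusted p = 0.176 from limma). Marco, a scavenger receptor of the same class, had 6.66, 6.34 and 6.52 on the RUNX2/MYC arrays and 6.95, 6.75 and 6.45 on the WT arrays, and the fold change of -0.21 (SE 0.15) came with overlapping groups. Siglec1, the sialic acid-binding receptor CD169, had 7.55, 7.15 and 7.27 on the RUNX2/MYC arrays and 7.76, 7.78 and 7.43 on the WT arrays. WT replicate 3 lay below RUNX2/MYC replicate 1, and the fold change of -0.33 had a wide 95% interval (-0.67 to 0.015). Mrc1, the mannose receptor, had 6.88, 6.81 and 6.81 on the RUNX2/MYC arrays and 6.89, 7.02 and 7.08 on the WT arrays. These groups only just failed to overlap, and the fold change was -0.16 (SE 0.089, adjusted p = 0.315 from limma). Cd163, the receptor for haemoglobin bound to haptoglobin, was among the dimmest genes (mean 5.98) with a fold change of 0.020 (SE 0.085).

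Complement C1q, a protein of A, B and C chains, which tags dying cells for uptake, was bright on all arrays, and no chain passed limma. C1qa had 9.03, 9.23 and 9.03 on the RUNX2/MYC arrays and 9.27, 9.21 and 9.39 on the WT arrays, a fold change of -0.20 (SE 0.10). C1qb had 10.33, 10.38 and 10.23 on the RUNX2/MYC arrays and 10.61, 10.33 and 10.25 on the WT arrays, a fold change of -0.079 (SE 0.12). C1qc had 9.89, 10.11 and 9.94 on the RUNX2/MYC arrays and 10.23, 9.92 and 9.95 on the WT arrays, a fold change of -0.054 (SE 0.12). All 3 fold changes were below 0 (only that of C1qa after median centring), the groups of each overlapped, and the adjusted p-values from limma were 0.292 (C1qa), 0.680 (C1qb) and 0.782 (C1qc). WT replicate 1 was the highest array for C1qb and C1qc but not for C1qa, and without it the fold changes of C1qb and C1qc turned to 0.027 and 0.043. With the median of its signal bin (described below) subtracted, the fold change was -0.33 for C1qa, -0.19 for C1qb and -0.18 for C1qc. On that scale the mean deviation of the chains was -0.094, -0.076 and -0.21 on the RUNX2/MYC arrays. It was 0.28, 0.054 and 0.011 on the WT arrays, without overlap. As deposited, the mean deviation of the chains was -0.10, 0.057 and -0.12 on the RUNX2/MYC arrays and 0.18, -0.032 and 0.012 on the WT arrays, with overlap. The chains are encoded side by side on chromosome 4 in the RefSeq annotation, and the promoters of C1qb (chr4:136886151-136886450) and C1qc (chr4:136892865-136893164), both on the minus strand of GRCm38.p6, are shown as neighbouring promoters of 1 complex. Capitals mark the RUNX core and E-box letters given above and GAGGAAGT, a motif of PU.1, the product of Spi1, searched on both strands with no overlap between matches.
C1qb: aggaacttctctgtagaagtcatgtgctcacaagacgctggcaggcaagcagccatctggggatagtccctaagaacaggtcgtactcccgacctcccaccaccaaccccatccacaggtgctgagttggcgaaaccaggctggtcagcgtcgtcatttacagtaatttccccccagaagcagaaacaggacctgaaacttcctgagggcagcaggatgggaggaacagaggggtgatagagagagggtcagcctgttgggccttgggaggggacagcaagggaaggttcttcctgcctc
C1qc: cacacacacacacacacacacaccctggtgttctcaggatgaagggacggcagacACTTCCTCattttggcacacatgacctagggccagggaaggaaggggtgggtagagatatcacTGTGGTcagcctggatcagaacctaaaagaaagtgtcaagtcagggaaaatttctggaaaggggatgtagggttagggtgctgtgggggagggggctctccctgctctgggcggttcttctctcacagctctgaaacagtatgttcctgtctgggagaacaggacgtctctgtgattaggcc
The C1qb window holds none of these letters, and the C1qc window holds 1 RUNX core and, on the reverse strand, 1 PU.1 motif, which 3.20% of all promoters hold.

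Receptors that bind dying cells showed no difference beyond the spread of the arrays. Mertk and Axl, receptor tyrosine kinases that bind phosphatidylserine through the bridging proteins GAS6 and protein S, had fold changes of -0.085 (SE 0.12) and -0.048 (SE 0.090). Mertk gave 7.59, 7.68 and 7.65 on the RUNX2/MYC arrays and 7.56, 7.67 and 7.95 on the WT arrays, and WT replicate 3 alone stood above the rest. Axl gave 9.22, 9.40 and 9.32 on the RUNX2/MYC arrays and 9.35, 9.30 and 9.43 on the WT arrays. Timd4, which binds phosphatidylserine itself, had 8.48, 8.62 and 8.52 on the RUNX2/MYC arrays and 8.43, 8.53 and 8.47 on the WT arrays, a fold change of 0.059 with a 95% interval from -0.14 to 0.26.

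The groups of Lyz2, Cd68, Csf1r and Vcam1 overlapped, and those of Cd14, a dim gene, did not. Lyz2, lysozyme, the brightest member, had 10.73, 11.25 and 10.88 on the RUNX2/MYC arrays and 10.85, 10.88 and 10.79 on the WT arrays. RUNX2/MYC replicate 2, the array with high adipocyte genes, was the highest, and without it the fold change of 0.11 turned to -0.037. Cd68, a lysosomal glycoprotein, had 10.02, 10.13 and 10.02 on the RUNX2/MYC arrays and 10.12, 9.69 and 9.75 on the WT arrays, a fold change of 0.20 (SE 0.13). Csf1r, the receptor of macrophage colony-stimulating factor, had 8.19, 8.20 and 8.22 on the RUNX2/MYC arrays and 8.15, 8.30 and 8.55 on the WT arrays, so that the RUNX2/MYC arrays lay within the WT range (fold change -0.14, SE 0.12). Vcam1, an adhesion molecule, had a fold change of -0.081 (SE 0.10). Cd14, a co-receptor for bacterial lipopolysaccharide, had 6.26, 6.14 and 6.01 on the RUNX2/MYC arrays and 6.34, 6.36 and 6.28 on the WT arrays. Its groups did not overlap but lay close at the nearest arrays, with a fold change of -0.20 (SE 0.096, adjusted p = 0.276 from limma).

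The 7 genes shared by myeloid cells had a median fold change of -0.048, 4 of them were below 0, and none had an unadjusted p under 0.05 or groups apart. The median turned to 0.036 after median centring, 0.0092 after quantile normalization and 0.0049 after cyclic loess. Cx3cr1, the fractalkine receptor, had 8.56, 8.10 and 8.28 on the RUNX2/MYC arrays and 8.66, 8.73 and 8.37 on the WT arrays, the largest difference of the group at -0.28 (SE 0.15, adjusted p = 0.310 from limma). Fcgr3, a low-affinity receptor for IgG, ran the other way, at 7.88, 7.70 and 7.60 on the RUNX2/MYC arrays and 7.69, 7.64 and 7.41 on the WT arrays (fold change 0.15, SE 0.12). The adaptor genes Fcer1g and Tyrobp, which carry the activating signal of Fc and other receptors, were the brightest of the group. Fcer1g had 9.34, 9.54 and 9.37 on the RUNX2/MYC arrays and 9.66, 9.21 and 9.14 on the WT arrays, a fold change of 0.079 (SE 0.15), and was the most widely spread of any member in WT (SD 0.28). Tyrobp had 9.03, 9.11 and 8.90 on the RUNX2/MYC arrays and 9.22, 8.95 and 9.02 on the WT arrays, a fold change of -0.048 (SE 0.11). Both genes had WT replicate 1 as the highest array. Itgam, which encodes CD11b, had 7.26, 7.29 and 7.22 on the RUNX2/MYC arrays and 7.46, 7.28 and 7.28 on the WT arrays, a fold change of -0.082 (SE 0.090), and Ccr2, the monocyte chemokine receptor, had one of -0.054 (SE 0.092). Spi1, which encodes the myeloid transcription factor PU.1, had 8.12, 8.26 and 7.92 on the RUNX2/MYC arrays and 8.08, 7.91 and 8.26 on the WT arrays, a fold change of 0.018 (95% interval -0.29 to 0.33).

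Set against each other, the macrophage genes lay above the dendritic cell genes by 0.13 (difference of the medians of the fold changes, log2 scale). On each array, the mean deviation of the macrophage genes from their 6-array means minus that of the dendritic cell genes was 0.040, 0.12 and 0.042 in RUNX2/MYC, against -0.056, -0.058 and -0.089 in WT. All 3 RUNX2/MYC arrays were above all 3 WT arrays, and the mean deviation of the dendritic cell genes themselves was -0.072, -0.13 and -0.12 in RUNX2/MYC, against 0.13, 0.088 and 0.11 in WT. That of the macrophage genes was -0.032, -0.015 and -0.079 in RUNX2/MYC, against 0.077, 0.030 and 0.019 in WT. On the deposited values, both groups of genes were thus lower on the RUNX2/MYC arrays and the dendritic cell genes by more. After median centring, the median fold change was 0.0015 for macrophage genes and -0.13 for dendritic cell genes. Leaving out RUNX2/MYC replicate 2 gave a difference of the medians of 0.066, leaving out WT replicate 1 gave 0.060 and leaving out RUNX2/MYC replicate 1 gave 0.20.

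The size of this contrast changed with how brightness was handled, in both directions. Over all probe sets the median fold change depended on the signal: split into 10 equal bins by mean signal, it was -0.16 in bin 4 and 0.13 in bins 8 and 9, counted from the dimmest. The dendritic cell genes were dimmer than the macrophage genes (median of the mean log2 signals 7.35 for dendritic cell genes and 8.04 for macrophage genes). With the median of its own signal bin subtracted from each gene's fold change, the median was -0.081 for dendritic cell genes, with 10 of 13 below 0, and -0.089 for macrophage genes, with 12 of 18 below 0. On that scale the per-array difference of the mean deviations was 0.048, 0.067 and 0.0066 in RUNX2/MYC, against -0.012, -0.022 and -0.094 in WT, without overlap. The per-array difference of the median deviations was 0.014, 0.024 and -0.051 in RUNX2/MYC and -0.011, -0.014 and -0.078 in WT, and the groups overlapped. Refitted after quantile normalization, cyclic loess or centring of each signal bin (added after the data were seen), the difference of the medians was 0.013, 0.021 and 0.0041. Among genes above the median signal of all probe sets, 12 macrophage and 5 dendritic cell genes, it was 0.21. Relative to its bin, the fold change was -0.51 for Siglech, -0.49 for Irf8, -0.42 for Cd83 and 0.44 for Msr1.

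**Figure D3:**
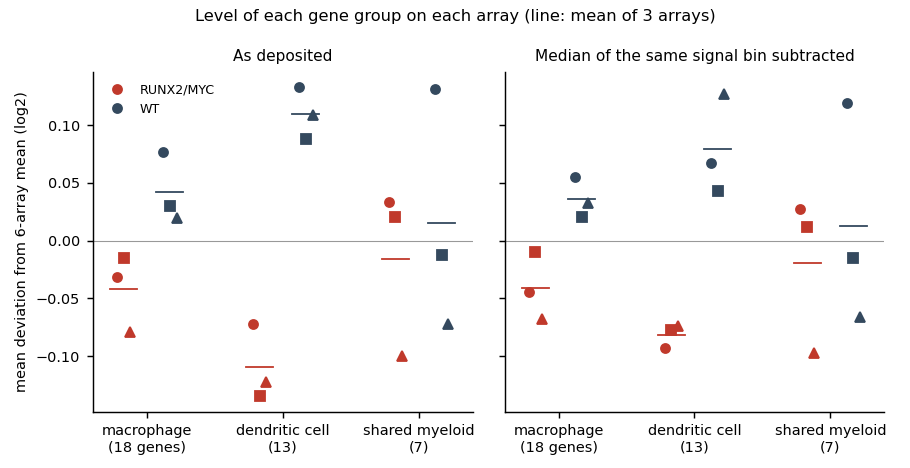
Mean deviation of the 18 macrophage, 13 dendritic cell and 7 shared myeloid genes from their 6-array means (log2) on each array (circle, square and triangle for replicates 1, 2 and 3), RUNX2/MYC in red left of WT in dark grey, as deposited (left panel) and with the median of each signal bin subtracted (right panel). The dendritic cell genes are the group farthest apart in both panels, and the gap narrows on the right.

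**Figure D4:**
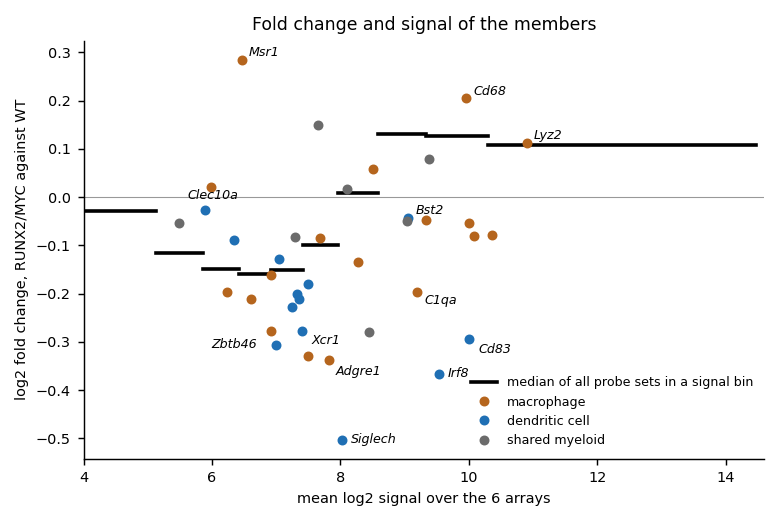
Fold change (log2) of each member in RUNX2/MYC over WT (vertical axis), by mean log2 signal over 6 arrays (horizontal axis), over black lines that give the median of all probe sets in each of 10 signal bins. Siglech, Irf8 and Cd83 lie farthest below the lines and Msr1 farthest above.

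Other genes of the same cells were read from 5 lists. Of 20 further macrophage genes measured, 10 lay below 0 and the median was 0.014 (-0.083 after centring on the 75th percentile). Among them, 1 was lower (5%) and 3 were higher (15%) at an unadjusted p under 0.05, against 9.27% and 12.0% of all probe sets. Limma called 1 of the 20 higher, where 1.68% of all probe sets were called higher. That gene, Maf, a transcription factor of tissue macrophages that T cells also use, had 8.80, 9.14 and 9.12 on the RUNX2/MYC arrays, against 8.08, 8.09 and 8.31 on the WT arrays. The groups were well apart, and Maf rose by 0.86 (SE 0.13, adjusted p = 0.0288 from limma). The adjusted p was 0.144 or 0.134 when RUNX2/MYC replicate 2 or 3 was left out, 0.112 or 0.170 when WT replicate 1 or 2 was, and 0.102 by the methods' analysis of variance with Benjamini-Hochberg adjustment. Each of these fits with 1 array left out called only 3 or 4 of all probe sets. Spic, a transcription factor of iron-recycling macrophages, had 7.56, 7.80 and 7.57 on the RUNX2/MYC arrays, against 7.23, 6.80 and 7.21 on the WT arrays (fold change 0.56, SE 0.14, adjusted p = 0.106 from limma). Hmox1, which degrades haem and was picked after its values were seen, had 8.53, 8.98 and 8.64 on the RUNX2/MYC arrays, against 8.20, 8.23 and 8.20 on the WT arrays (fold change 0.50, adjusted p = 0.104 from limma). The groups did not overlap for either gene. Spic and Hmox1 had an adjusted p of 0.0392 and 0.0413 when only probe sets of 1 gene were tested. Of 4 erythroid genes, 2 lay above 0 and 2 just below it (0 below it after quantile normalization or cyclic loess). Alas2, the haem synthesis enzyme of red cells, read 10.91, 9.98 and 9.36 on the RUNX2/MYC arrays and 9.21, 8.55 and 8.99 on the WT arrays, and the part of red cell RNA in these values was not tested.

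Of 21 further dendritic cell genes measured, none was called, 16 lay below 0 and the median was -0.15 (12 and -0.067 after median centring, 18 and -0.25 after centring on the 75th percentile). At an unadjusted p under 0.05, 7 were lower (33.3%) and 1 was higher (4.76%), against 9.27% and 12.0% of all probe sets. By the methods' q values 2 of the 21 (Tlr9 and Ciita) were lower, where 0.695% of all probe sets were called lower. The higher gene was Spib, at 9.89, 9.90 and 10.09 on the RUNX2/MYC arrays, against 9.71, 9.43 and 9.71 on the WT arrays. Its groups did not overlap, and the fold change was 0.34 (SE 0.11, adjusted p = 0.176 from limma). Ccl22, a chemokine of mature dendritic cells, had 9.68, 10.01 and 9.83 on the RUNX2/MYC arrays, against 10.25, 10.31 and 10.16 on the WT arrays, with no overlap (fold change -0.40, SE 0.11, adjusted p = 0.125 from limma). Ly75, the endocytic receptor DEC-205 of dendritic cells and cortical epithelium, had a fold change of -0.38 (SE 0.19) with overlapping groups.

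Of 20 genes of apoptotic cell uptake, none was called, 13 lay below 0 and the median was -0.10 (11 and -0.020 after median centring, 14 and -0.045 after cyclic loess, 15 and -0.20 after centring on the 75th percentile). At an unadjusted p under 0.05, 1 was lower (5%) and 2 were higher (10%), against 9.27% and 12.0% of all probe sets. Cd36, a scavenger receptor that adipocytes and vessels also carry, had 7.48, 8.82 and 8.05 on the RUNX2/MYC arrays and 7.33, 7.52 and 7.46 on the WT arrays. Its highest value was on the array with high adipocyte genes, whose part in it was not tested. Elmo1, which relays engulfment signals to RAC1, had 10.22, 10.36 and 10.54 on the RUNX2/MYC arrays, against 9.63, 9.86 and 10.18 on the WT arrays (fold change 0.48, SE 0.16, adjusted p = 0.170 from limma). Gas6, the ligand of Mertk and Axl, picked after its values were seen, had 9.21, 9.54 and 9.33 on the RUNX2/MYC arrays, against 9.70, 9.75 and 9.91 on the WT arrays, a fold change of -0.43 (SE 0.12, adjusted p = 0.122 from limma). It was called after quantile normalization (adjusted p = 0.0369), cyclic loess (0.0296) and centring of each signal bin (0.0293). By the methods' q values no gene of this list was called.

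Of 13 growth factors, chemokines and receptors measured, none was called, 12 lay below 0 (7 after cyclic loess) and the median was -0.11. At an unadjusted p under 0.05, 2 were lower (15.4%) and 1 was higher (7.69%), against 9.27% and 12.0% of all probe sets. The exception in direction was Xcl1, the ligand of XCR1, which T cells and NK cells make. It had 8.40, 8.82 and 8.38 on the RUNX2/MYC arrays, against 7.56, 7.76 and 7.99 on the WT arrays, a fold change of 0.76 (SE 0.16, adjusted p = 0.0723 from limma), and Xcr1, given above, differed in the other direction. Neither passed limma's threshold in these fits, whereas Xcl1 was called with only probe sets of 1 gene (adjusted p = 0.0178), the replicate block (0.0354) and array weights (0.0119), and Xcr1 with array weights (0.0174). Csf3r, the receptor of granulocyte colony-stimulating factor, had a fold change of -0.31 (SE 0.12). Of 9 genes of Fc receptor and ITAM signalling, none was called, 7 lay below 0 and the median was -0.18 (6 and -0.098 after median centring, 5 and -0.084 after cyclic loess). Here 2 were lower (22.2%) and 1 was higher (11.1%) at an unadjusted p under 0.05, against the same 9.27% and 12.0%. Clec7a, the fungal glucan receptor dectin-1, had 8.10, 8.73 and 8.24 on the RUNX2/MYC arrays, against 7.69, 7.88 and 7.88 on the WT arrays (fold change 0.54, SE 0.17, adjusted p = 0.163 from limma). By the methods' q values no gene of these 2 lists was called. Plcg2, a phospholipase downstream of these receptors and of the B cell receptor, had a fold change of -0.30 (SE 0.11, adjusted p = 0.198 from limma).

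**Figure D5:**
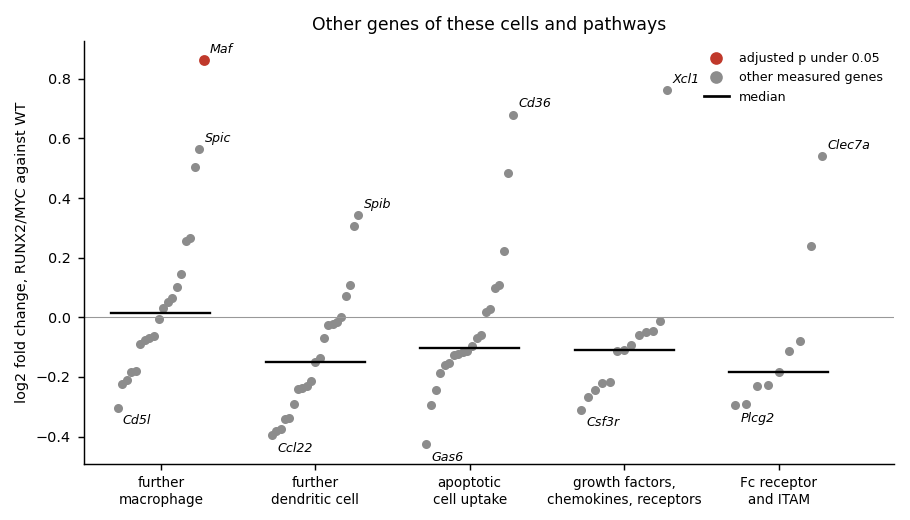
Fold change on the log2 scale (RUNX2/MYC over WT) of every measured gene in 5 lists, with the list median as a line. Maf is the one gene with an adjusted p under 0.05, at 0.86, and the medians run from -0.18 (Fc receptor and ITAM) to 0.014 (further macrophage genes).

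Markers of other cells also differed between the groups. All 10 thymic epithelial genes measured lay below 0 (median -0.28), also after each rescaling, with a mean log2 signal of 9.51 to 9.68 on the RUNX2/MYC arrays, against 9.84 to 10.00 on the WT arrays, and Krt8, a keratin of thymic epithelium, had a fold change of -0.53 (adjusted p = 0.0544 from limma) and Prss16, a protease of cortical epithelium, one of -0.41. Krt8 was called lower in 10 of the 18 other settings, among them quantile normalization (adjusted p = 0.0335) and cyclic loess (0.0308), over a range from 0.0107 to 0.242. All 7 B cell genes lay below 0 (median -0.25, 6 of 7 after cyclic loess), at 7.34 to 7.46 on the RUNX2/MYC arrays and 7.56 to 7.67 on the WT arrays, with Fcrla at -0.32 and Cd79a, a chain of the B cell receptor, at -0.27. All 12 neutrophil genes lay below 0 (median -0.18, 8 of 12 after cyclic loess), at 6.69 to 7.07 on the RUNX2/MYC arrays and 7.04 to 7.32 on the WT arrays, with the granulocyte marker Ly6g at -0.48 and the chemokine receptor gene Cxcr2 at -0.62. Of 11 thymocyte genes, 8 lay below 0 (median -0.19), with Cd4 at -0.74 and the recombinase gene Rag1 at -0.62. The count was 6 (median -0.11) after median centring and 10 (median -0.31) after cyclic loess. Of 7 NK cell genes, 3 lay below 0 (median 2e-05), with Ncr1 at -0.31 and Gzma at 0.25. Fibroblast genes lay below 0 in 8 of 9 (median -0.11, 5 of 9 after quantile normalization or cyclic loess, Col1a1 -0.31, Dpt 0.23) and endothelial genes in 7 of 8 (median -0.042, or 3 of 8 after median centring, Vwf -0.27, Pecam1 -0.22). Adipocyte genes lay above 0 in 9 of 12 (median 0.17, Car3 1.50, Ucp1 1.07), a direction that RUNX2/MYC replicate 2 set: their mean deviation was -0.16, 0.90 and -0.25 on the RUNX2/MYC arrays, against -0.10, 0.0051 and -0.39 on the WT arrays. The 4 erythroid genes were split on the deposited values, with fold changes of 1.17 for Alas2 and 0.64 for Slc4a1, and of -0.053 for Epb42 and -0.087 for Klf1. After quantile normalization, cyclic loess or centring of signal bins, 0 of these 4 lay below 0. None of these 80 genes was called by limma, and at an unadjusted p under 0.05, 15 were lower (18.8%) and 3 higher (3.75%), against 9.27% and 12.0% of all probe sets. By the methods' q values 2 of the 80, Krt8 and Foxn1 (a transcription factor of thymic epithelium), were lower, where 0.695% of all probe sets were called lower. Their part in the values of the dendritic cell and macrophage genes was not tested.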

How the data were processed

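Array values were used as deposited. The authors made log2 signals by RMA, a method that removes background, equalises the arrays and reduces the probes of a set to 1 value. The submitters' processing notes name Affymetrix Expression Console 1.4, and the methods name Partek software with a GC adjustment before background correction. Of 35556 probe sets, the annotation gives 21789 a single gene symbol, leaves 12146 without one and gives several to 1621. Groups were compared by limma 3.58.1 in R 4.3.3 on all probe sets (lmFit, eBayes, Benjamini-Hochberg adjustment, call at adjusted p under 0.05). The fit was tested on simulated data. The labels call the arrays biological replicates without naming litters, so p-values measure the spread between these arrays. The members and all lists were chosen with earlier results of these data known, and no list was tested as a set. Values on each array are given for members called or without overlap, the 3 with the largest fold changes and the 2 brightest of each group, the C1q chains, Mertk and Axl. Of the other lists the called genes and the 2 largest fold changes are named, some with values on each array. Genes named outside this rule were picked after their values were seen, among them Foxn1, Tlr9, Ciita and Spib. Of the genes listed, 14 had no probe set of their own and were not used here. The 18 other settings covered scaling, filters, the methods' analysis of variance, array weights, a replicate block and leaving out each array. Promoters came from RefSeq (GRCm38.p6).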

Additional observations from a re-analysis of the deposited data

How the results depend on the processing

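No member was called when 1 array was left out. Without RUNX2/MYC replicate 2 or 3, or WT replicate 1 or 2, only 3 or 4 of all probe sets were called, none lower. Those fits could therefore hardly call a member. Members called lower numbered 1 (Siglech) with only probe sets of 1 gene, by the methods' q values and with the replicate block, 1 (Irf8) after centring of signal bins, which was added after the data were seen, and 11 with array weights, which called 7318 of all probe sets lower and 5766 higher and set RUNX2/MYC replicate 1 at 0.418 and WT replicate 2 at 3.26. Members called higher numbered 1 (Msr1) after cyclic loess. The median fold change of the macrophage and dendritic cell genes was 0.0015 and -0.13 under median centring, -0.18 and -0.31 under centring on the 75th percentile and -0.12 and -0.13 after quantile normalization, and that of the dendritic cell genes -0.11 after cyclic loess and -0.10 after centring of signal bins. The difference between them was 0.013 after quantile normalization, 0.021 after cyclic loess, 0.0041 after centring of signal bins, 0.20 with array weights and 0.21 for genes above the median signal. With 1 array left out in turn, the macrophage median ran -0.12 to -0.061, the dendritic cell median -0.27 to -0.17 and the difference 0.060 to 0.20. The median of all probe sets was 0.033 under median centring and -0.15 under centring on the 75th percentile.

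Fold changes changed sign in these cases, none of them called with either sign: under median centring Axl 0.036, C1qb 0.0049, C1qc 0.030, Vcam1 0.0035, Bst2 0.041, Clec10a 0.058, Itgam 0.0024, Tyrobp 0.036 and Ccr2 0.030, and under centring on the 75th percentile Cd163 -0.076, Timd4 -0.038, Spi1 -0.079 and Fcer1g -0.018. The sign also changed under quantile normalization Clec9a 0.023, Clec10a 0.068, Itgam 0.0092, Fcer1g -0.033 and Ccr2 0.032, under cyclic loess Lyz2 -0.029, Timd4 -0.012, Clec9a 0.076, Clec10a 0.11, Cd86 0.016, Itgam 0.034, Fcer1g -0.059 and Ccr2 0.052, under array weights Axl 0.0065 and Cd163 -0.021, and under centring of signal bins Lyz2 -0.0008, Clec9a 0.055, Clec10a 0.12, Cd86 0.014, Itgam 0.060, Spi1 -0.014, Fcer1g -0.060 and Ccr2 0.063. With 1 array left out, the ranges that crossed 0 were Mertk -0.17 to 0.027, C1qb -0.15 to 0.027, C1qc -0.12 to 0.043, Vcam1 -0.13 to 0.0029, Lyz2 -0.037 to 0.23, Cd163 -0.025 to 0.056, Clec9a -0.14 to 0.0024, Bst2 -0.10 to 0.015, Clec10a -0.050 to 0.0068, Spi1 -0.071 to 0.11, Tyrobp -0.10 to 0.030 and Fcer1g -0.018 to 0.24. The causes were not tested.

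Against 596 probe sets called higher and 45 lower, the counts were 915 and 48 under median centring, 209 and 45 under centring on the 75th percentile, 543 and 98 after quantile normalization, 457 and 124 after cyclic loess, 812 and 85 without the dimmest 25%, 1236 and 149 with probe sets of 1 gene, 162 and 33 by the methods' analysis of variance, 1213 and 247 with its q values, 1054 and 104 with an intensity trend, 478 and 135 after centring of signal bins, and, with 1 array left out, 872 and 718 (RUNX2/MYC replicate 1), 540 and 75 (WT replicate 3), 4 and 0 (WT replicate 1) or 3 and 0 (each of the other arrays). The arrays numbered 1 and those numbered 3 deviated together (correlations 0.50 and 0.61) and those numbered 2 did not (-0.15), so the numbers were not taken to pair the arrays, and the replicate block moved the counts to 1654 and 763. Averaging several probe sets of a gene was not run, since each member has 1.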
